A study of Mus musculus with 11 samples.

Results

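Protein-coding promoters that were open in every ATAC-seq library of midbrain dopaminergic (DA) and hindbrain serotonergic (5-HT) neurons are described here, with the functions of their genes and the rank of their scores. They were selected on the measured scores. A region was kept when its score was above 0, which marks a peak, in all 5 libraries, when it was narrower than 4000 bp, and when its centre lay from 1 kb upstream to 100 bp downstream of the transcription start site (TSS) of a protein-coding transcript. Of 131942 regions in the list, 16856 had a peak in all 5 libraries and 6376 met the whole rule. These 6376 promoters belonged to 6939 of 22372 protein-coding genes (31.0%, 95% Wilson interval 30.4 to 31.6%).

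The study compared open chromatin of 2 kinds of monoaminergic neuron in mouse embryos at embryonic day 14.5. DA neurons were GFP-positive cells sorted from the ventral mesencephalon of TH-GFP mice, in which the rat Th promoter drives GFP (3 libraries, DA 1 to DA 3). 5-HT neurons were YFP-positive cells sorted from rhombomeres of the anterior hindbrain of Mash1-CRE x ROSA YFP mice (2 libraries, 5-HT 1 and 5-HT 2). Males of these lines had been mated with Swiss wild-type females, each sort pooled several embryos, and the libraries of a group came from independent sorts. Each group is thus a population sorted by its reporter.

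In ATAC-seq, a transposase inserts adapters where DNA is accessible, and promoters of active genes are the sites most often found open. Many promoters of genes that every cell needs lie in CpG islands, stretches that keep a high content of the CG dinucleotide, and start transcription without a TATA box. Promoters of genes of a single tissue are more often poor in CG, and the cell type is set to a larger extent by distal elements than by promoters.

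By the position of the region centre, most markers of the sorted cells were outside the shared promoters. The promoter of Th, which encodes the rate-limiting enzyme of dopamine synthesis, scored 9.91, 10.6 and 8.45 in DA 1, DA 2 and DA 3 and 0 in both 5-HT libraries. Lmx1a, a regulator of midbrain DA progenitors, likewise had a promoter peak in the 3 DA libraries, at 5.00, 5.62 and 4.09, and a score of 0 in the 5-HT libraries. Fev, the transcription factor of 5-HT neurons, had a promoter peak in 5-HT 1 with a score of 3.88 and a score of 0 in the other 4 libraries. These were the only markers of their lists with promoter peaks in the libraries of their own cell type alone. Among the other DA markers, Slc6a3 and Lmx1b also had a promoter peak in 5-HT 1 and Slc18a2 in 5-HT 2, and a region overlapped the promoters of Ddc, Pitx3, Foxa2, En2 and Kcnj6 in all 5 libraries. Among the 5-HT markers, Maob had a promoter peak in the 3 DA libraries and a score of 0 in both 5-HT libraries, and Htr1a had one in the 3 DA libraries and 5-HT 2. No region was centred in the promoters of Tph2 and Slc6a4, which encode the enzyme of serotonin synthesis and the serotonin transporter, although a region overlapped the promoter of Tph2 in 5 libraries and that of Slc6a4 in 3. The shared promoters held 2 of 13 DA markers, Nr4a2 and Foxa1, and 1 of 11 5-HT markers, Gata3. By any overlap with the promoter, these became 7 of 13 (53.8%) and 3 of 11 (27.3%), against 47.6% of all genes. En1 had a promoter peak in all 5 libraries in a region too wide for the rule. Nr4a2 scored 8.45, 8.64 and 7.72 in the DA libraries against 4.22 and 3.63 in the 5-HT libraries. The scale of the scores is not given, and the median shared promoter also scored higher in the DA libraries. Its scores were 8.77, 11.3 and 9.45 in DA 1, DA 2 and DA 3, and 6.24 and 4.45 in 5-HT 1 and 5-HT 2. For Gata3 the scores were 6.98, 4.52 and 4.65 in the DA libraries and 5.13 and 7.51 in the 5-HT libraries. Of 25 markers of glia, vessels, microglia and red cells, 2 had a shared promoter, and Gfap, Aif1, Csf1r, Pecam1, Sox10 and Hbb-b1 had no region centred in the promoter in any library. Of 6 markers of GABA and glutamate neurons, Gad1 was the only gene with a shared promoter, and it scored 4.84, 4.45 and 4.12 in DA neurons and 4.60 and 3.19 in 5-HT neurons.

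Most lists with the largest shares were of general cell functions, against 31.0% of all protein-coding genes. A shared promoter was found for 21 of 27 chaperonin and heat shock genes, 32 of 42 translation factors, 57 of 75 nuclear subunits of oxidative phosphorylation, 57 of 78 cytosolic ribosomal proteins and 33 of 46 DNA repair genes. In all, 25 of 35 lists had a share above that of all genes. The list of Parkinson disease genes had 14 of 19 genes with a shared promoter. The shares were lower than these for several lists of neuronal function. Voltage-gated channels had 21 of 63 genes with a shared promoter (33.3%) and axon guidance ligands and receptors 20 of 63 (31.7%), near the share of all genes. Neurogenic and pan-neuronal regulators had 24 of 57 (42.1%), and receptors of glutamate, GABA and acetylcholine 12 of 58 (20.7%). By any overlap with the promoter, the first 3 of these lists reached 57.1%, 66.7% and 75.4% and the receptors 29 of 58, against 47.6% of all genes. Synaptic vesicle release had 28 of 52 (53.8%), close to mitochondrial ribosomal proteins with 41 of 75 (54.7%). Tubulins, actins and motor proteins, a general function, had 19 of 55 (34.5%). By any overlap, synaptic vesicle release reached 76.9%, mitochondrial ribosomal proteins 77.3% and tubulins, actins and motor proteins 45 of 55 (81.8%). The general lists named first reached 85.2%, 90.5%, 98.7%, 89.7% and 93.5% by any overlap, in the order given.

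Gene families of other tissues were nearly absent. Of 1113 olfactory receptors, 1 had a shared promoter, Olfr658. None of 328 vomeronasal receptors and none of 47 genes of liver, muscle and pancreas had one. In the list of keratins, taken by symbol, the 1 gene of 100 was Krtcap2, which is not a keratin and encodes a subunit of the oligosaccharyltransferase. Zinc finger genes named Zfp, a family of transcription factors, had 179 of 371. Of 54 cytokines and chemokines, 6 had a shared promoter, with Ccl25 the highest and Cxcl3 the lowest by mean percentile.

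The rank of a score within its library was given as a percentile among all peaks of that library. The libraries had 52861, 93055 and 94351 peaks for DA 1, DA 2 and DA 3, and 38772 and 22879 for 5-HT 1 and 5-HT 2, and the number of reads behind them is unknown. The median percentile of the shared promoters was 85.8, 93.0 and 92.1 in DA 1, DA 2 and DA 3, and 80.2 and 71.6 in 5-HT 1 and 5-HT 2. All 3 DA libraries lay above both 5-HT libraries, with means of 90.3 ± 3.95 (SD, n = 3) and 75.9 ± 6.07 (SD, n = 2). The 5-HT libraries also had the fewest peaks, and a fixed set of regions with a peak in every library ranks higher where more peaks lie below it, so no test is given. When the rank was taken over the top 22879 peaks of each library with all 6376 members kept, a setting chosen after seeing the data, the medians were 67.1, 71.6 and 67.6 in the DA libraries and 66.5 and 71.6 in the 5-HT libraries. The groups then overlapped, and the difference of the means went from 14.4 to -0.27.

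Shared promoters ranked above shared intronic and intergenic regions by median in every library, as a description. Shared regions under 4000 bp centred in introns (3872) had median percentiles of 71.2, 82.7 and 83.6 in the DA libraries and 67.0 and 52.2 in the 5-HT libraries, and intergenic ones (3557) 71.9, 82.4, 84.6, 67.7 and 50.3 in the same order. Members made up 12.1%, 6.85% and 6.76% of all peaks of DA 1, DA 2 and DA 3, and 67.9%, 72.8% and 68.1% of the peaks in the highest 1% of these libraries. In 5-HT 1 and 5-HT 2 they made up 16.4% and 27.9% of all peaks and 59.0% and 66.8% of the highest 1%. In 5-HT 2, 11.4% of the shared promoters lay in the lowest 25% of peaks, against 0.0471% in DA 2.

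Promoters that missed the rule by 1 library lacked mostly the same library. Of 1290 protein-coding promoter regions under 4000 bp with a peak in 4 libraries, 1151 had no peak in 5-HT 2, the library with the fewest peaks. A further 97 lacked 5-HT 1, 34 lacked DA 1, 8 lacked DA 3 and 0 lacked DA 2. Without 5-HT 2 the number of shared promoters was 7527.

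The 10 promoters at the top of the ranking belonged to genes of varied function. Stt3a, the catalytic subunit of the oligosaccharyltransferase, had the highest mean percentile over the 5 libraries, scoring 33.6, 35.8 and 35.9 in DA neurons and 20.2 and 20.0 in the 5-HT libraries (mm9 chr9:36574846-36576154). Khsrp, an RNA-binding protein of mRNA decay and splicing, followed with 35.8, 39.4 and 37.6 in the DA libraries and 18.3 and 19.2 in the 5-HT libraries (chr17:57170308-57172059). The next were Trim45, a ubiquitin ligase, Hsd17b12, an enzyme of fatty acid elongation, Evi5l, a GTPase-activating protein of Rab proteins, and Eif2ak3, the kinase PERK of the endoplasmic reticulum stress response. Mrps14, of the mitochondrial ribosome, Tomm40, the import pore of the outer mitochondrial membrane, Kdm4b, a histone demethylase, and Osbp, an oxysterol-binding protein, completed the first 10. In each of these 10 the scores of the DA libraries were higher than those of the 5-HT libraries, a comparison across libraries whose scale is not given, while the percentiles of the 5 libraries all lay close to 100%. The 5 lowest were Tspan17, Kalrn, Gm2974, P4ha3 and a region shared by Gm10399 and Vsig10. Kalrn, a guanine nucleotide exchange factor of dendritic spines, scored 3.72, 3.64 and 3.26 in the DA libraries and 3.61 and 3.02 in the 5-HT libraries, near the lowest peak scores of 3.45, 3.04, 3.03, 3.37 and 2.83.

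Gm10222 stood apart by its scores, and it was singled out after they were seen. At chr1:24619415-24620031 it scored 181, 142 and 213 in the DA libraries, 10.2 in 5-HT 1 and 133 in 5-HT 2. The next member scored 35.8 in DA 1, 41.6 in DA 2, 37.6 in DA 3 and 20.0 in 5-HT 2. Of the 588 words of 30 bases in this region, 536 (91.2%) also occur in the mitochondrial genome, and none of the other members shares a word of this length with it. Reads from the mitochondrial genome and from this region cannot be told apart by such words. In the narrowest member, Gm10718 on chromosome 9, the 4 words of 30 bases that were searched, also after the scores were seen, occurred 6 to 91 times each in the genome, while the 4 searched in Stt3a occurred 1 time each.

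Within the lists, the ranks spread widely. The median of the mean percentile was 83.1 over all members, 92.6 for chaperonin and heat shock genes, 93.4 for DNA repair, 92.6 for splicing factors and 90.9 for cytosolic ribosomal proteins, and it was 62.7 for voltage-gated channels and 62.4 for axon guidance genes. Among the ribosomal proteins the order ran from Rpl37, at 99.7, to Rpl19, at 56.4, and among splicing factors from Hnrnpc, at 99.8, to Srsf9, at 35.8. The RNA-binding protein Elavl2, at 99.6, led the neurogenic and pan-neuronal regulators, and Rest, the repressor of neuronal genes, was the lowest of them at 37.6. Robo3, the receptor of midline crossing, ranked highest among the axon guidance genes, at 94.4, and Efna2 lowest, at 24.8. In synaptic vesicle release, Napa was at 99.1 and Nrxn3 at 43.5. Among Parkinson disease genes, Htra2, a mitochondrial protease, was at 94.3 and Lrrk2 at 57.8. The list of chromatin regulators had a median of 73.7, below that of all members, with Chd2 at 99.7 and Smarcd3 at 39.4. The median percentile of the chaperonin and heat shock genes was above that of all members in each of the 5 libraries, and that of the voltage-gated channels was below it in each.

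The order of the promoters by score was much alike between libraries. Spearman's correlation over the 6376 members, which share their sequence and the peak list, reached 0.903, 0.920 and 0.899 among the 3 DA libraries and 0.751 between 5-HT 1 and 5-HT 2. Across cell types it ran from 0.758 to 0.837. The mean within a cell type exceeded that between cell types by 0.0719, and a one-sided exact permutation test over the 10 divisions of the libraries gave p = 0.1, the smallest it can give. Leaving out 1 library moved this difference of means, from 0.0309 without DA 1 to 0.141 without 5-HT 1. The value between 5-HT 1 and 5-HT 2 was below all 6 values across cell types.

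The DA and 5-HT libraries were compared for the relative score of each promoter, with scores turned into rank-normal values (in standard deviations) within the 16856 regions with a peak in all 5 libraries. By limma with Benjamini-Hochberg adjustment over these regions at a threshold of 0.05, 4 of 6376 shared promoters were higher in DA neurons, against 62 of all 16856 regions (0.368%), and 14 were lower, against 134 (0.795%). Promoters with a score of 0 in any library were left out before this comparison, which bounds the calls in both directions. Of promoter regions with a peak in 4 libraries, 1151 lacked 5-HT 2 and 97 lacked 5-HT 1, while 34 lacked DA 1 and 8 lacked DA 3. All 3 DA libraries lay above both 5-HT libraries at 1256 members (19.7%), against 17.7% of all fitted regions, and below both at 772 (12.1%), against 17.0%. Calls made up 0.282% of members and 1.70% of the other shared regions, and this difference was not tested. Without any 1 of the DA libraries, limma called 0 members (unadjusted p below 0.05 at 415, 398 and 406 members without DA 1, DA 2 and DA 3). Without 5-HT 1 it called 422 members higher and 232 lower, and without 5-HT 2 it called 126 and 76, with the lone 5-HT library assumed to vary like the DA libraries. With log2 scores centred on the median of each library it called 161 higher and 166 lower, a share of higher calls of 49.2% in place of 22.2%.

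The promoters higher in DA neurons belonged to Cish, Rxrg, Dmrta2 and Thg1l. Rxrg, a retinoid X receptor, had rank-normal values of 0.54, 0.75 and 0.33 in the DA libraries and -0.99 and -1.37 in the 5-HT libraries, a difference of 1.73 ± 0.29 (SE; limma adjusted p = 0.0354). Cish, an inhibitor of cytokine signalling, had 0.77, -0.02 and 0.51 against -1.59 and -1.27, a difference of 1.85 ± 0.32. Dmrta2, a transcription factor of neural progenitors, differed by 1.62 ± 0.31, and Thg1l, which adds a guanine to histidine tRNA, by 1.55 ± 0.27. In these 4 promoters the 3 DA libraries all lay above the 5-HT libraries. Among members that were not called, the largest differences without overlap of the groups were at Rps15, Usp19, Nqo1, Arid4a and a region shared by Alg3 and Ece2, from 1.69 to 1.91, with adjusted p by limma of 0.134, 0.180, 0.0570, 0.108 and 0.106 in this order. In 4 of them, all but Nqo1, 5-HT 2 lay far below 5-HT 1, as at Rps15 with -2.62 and -0.39. The scores of these 4 in 5-HT 2 were 2.84, 2.84, 2.86 and 2.90, near its lowest peak score of 2.83.

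Of the 14 promoters lower in DA neurons, that of Ptprg had the largest difference. Ptprg, a receptor tyrosine phosphatase, had values of -1.17, -1.40 and -1.22 in the DA libraries and 0.67 and 1.10 in the 5-HT libraries, a difference of -2.15 ± 0.28 (SE; limma adjusted p = 0.0204). Cntnap5a, of the neurexin family, differed by -2.02 ± 0.31, and Cacng3, an auxiliary subunit of AMPA receptors, by -2.01 ± 0.35. Irx2 and Irx5, homeobox genes of the Iroquois group, differed by -1.62 ± 0.29 and -1.53 ± 0.29. Others were 5330437I02Rik, Rab27a, Mtap1b, Hadh, Slc10a6, Nwd1, Lama2 and Acot1. The median GC content around the TSS was 54.7% for these 14 promoters, 58.2% for the 4 higher in DA neurons and 63.7% for all members. The called promoters also ranked low, with medians of the mean percentile of 54.9, 65.8 and 83.1 in the same order. At 5330437I02Rik the score in DA 1, 3.45, was the lowest peak score of that library. Foxa1, a DA marker with a shared promoter, differed by 1.20 in favour of DA neurons without passing the threshold (adjusted p = 0.0786), and Gata3 by -1.65 (adjusted p = 0.190).

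The rule bounds both the width of the shared promoters and the place of their centres. Widths had to be below 4000 bp, and centres could lie up to 1 kb upstream but only 100 bp downstream of a TSS. Within these bounds, the shared promoters were wider by median than shared intronic and intergenic regions. Their median width was 1214 bp, with quartiles of 907 and 1633 bp, against 992 bp for shared intronic and 788 bp for shared intergenic regions. A protein-coding TSS lay inside 6265 of the 6376 (98.3%). The centre lay upstream of the nearest TSS in 3975, with a median at -32 bp. Width and mean percentile were nearly unrelated (Spearman's correlation -0.0111 across members). The narrowest members were Gm10718 (141 bp), the region of Gm20496 and Tap2 (177 bp) and Omg (213 bp). The widest were those of Ptch1 (3890 bp), Hivep2 (3946 bp) and the pair 5031425E22Rik and Mll5 (3967 bp). Just past the width limit were Nol4 (4036 bp), Klf10 (4048 bp) and 3110070M22Rik (4105 bp), of 22 shared promoter regions of 4000 bp or more. Klf10 scored 8.42, 13.6 and 12.4 in the DA libraries and 6.81 and 4.42 in the 5-HT libraries, and Ptch1, just inside the limit, 7.75, 8.13 and 7.97 against 5.97 and 4.27.

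A region served 2 genes in 726 cases and 3 or more in 10, and 705 members (11.1%) had genes on opposite strands. The latter ranked higher in each library, with median percentiles of 90.7, 95.8 and 94.7 in the DA libraries and 85.9 and 79.0 in the 5-HT libraries, against 85.1, 92.5, 91.6, 79.3 and 70.3 for the other members. On chromosome X, 223 of 932 genes had a shared promoter (23.9%), against 31.4% of autosomal genes, and the shares of single autosomes ran from 23.1% on chromosome 14 to 36.1% on chromosome 5. None of the 17 genes of chromosome Y had one. With olfactory and vomeronasal receptors left out, a choice made after the shares were seen, they were 24.1% on chromosome X, 24.1% on chromosome 14 and 33.6% over all autosomes.

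The sequence around the TSS, which the rule did not use, was rich in CG dinucleotides. In the window from 250 bases before to 50 bases after the TSS, the ratio of observed to expected CG dinucleotides had a median of 0.831 over the 12498 TSSs of members, 0.728 over 11319 TSSs where a region only overlapped the promoter or was wide, 0.575 over 5012 TSSs with a promoter peak in 1 to 4 libraries and 0.207 over 17146 TSSs with no region at the promoter. A GC content above 50% with a ratio above 0.6 was found at 81.4%, 62.7%, 44.0% and 3.60% of these TSSs. The ratio was less tied to rank among the members themselves, with a Spearman's correlation of 0.106 with the mean percentile.

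Short words bound by known promoter factors were counted on both strands of the same window, as a description of the sequence and not of binding. The SP/KLF word GGGCGG stood in 70.3% of member windows and in 44.2% of all 45975 protein-coding windows, NRF1 (GCGCNTGCG) in 16.0% and 8.10%, ETS (CCGGAAGT) in 10.0% and 4.71%, and YY1 (AAGATGGCG) in 4.02% and 1.93%. The shares were 3.64% and 2.13% for CREB (TGACGTCA), 10.0% and 7.67% for the E-box (CACGTG), 2.34% and 1.17% for the ZBTB33 type word (CTCGCGAG), and 1.79% and 0.946% for E2F (TTTGGCGC or TTTCGCGC). The TATA box (TATAAA) was the exception, in 4.36% of member windows, 11.4% of all windows and 20.2% of windows with no region. The NFY word CCAAT was in 39.1% of member windows and 35.7% of all windows, and in a longer window, from 500 bases before to 100 after the TSS, in 55.2% of each.

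CCAAT was the word with the largest difference in median rank between members with and without it, which was noticed after the values were seen. It stood within the window of 428 of the 638 members with the highest mean percentile (67.1%) and of 142 of the 638 with the lowest (22.3%). By its number of copies, the median percentile in DA 1 was 81.5 with 0 copies, 87.9 with 1, 93.2 with 2 and 97.1 with 3 or more, over 3891, 1460, 625 and 400 members. The same series was 90.9, 94.1, 96.5 and 98.7 in DA 2 and 89.6, 93.4, 96.2 and 98.2 in DA 3. In 5-HT 1 it was 76.1, 82.4, 87.5 and 93.9, and in 5-HT 2 it was 65.1, 75.5, 84.7 and 92.7. The rank rose with each step in every library. The order was kept among promoters rich in CG, where the median of the mean percentile was 90.8 with the word and 80.7 without it, and among the others, with 80.8 and 72.0. In the 638 highest members the copies were densest from 100 to 51 bases before the TSS, with 43.1 copies per 100 promoters, against 7.99 at the same place in the 638 lowest. By the ratio of the shares at the TSSs of the highest and the lowest 10% of members, E2F, with 2.74% and 0.280%, ETS, with 11.3% and 3.17%, and YY1, with 5.04% and 1.59%, differed more than CCAAT, with 65.8% and 21.9%. For SP/KLF the medians of the mean percentile lay closer, at 83.7 with the word and 81.7 without it.

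For the words other than E2F, the promoter with the highest mean percentile that held it in the 100 bases before an annotated TSS, outside any annotated exon, is given to show how the words lie at strongly ranked promoters. Capitals mark the word for which the promoter is shown, on either strand, and other words in the same sequence are left in lower case. All are on mm9 and read in the direction of transcription. They are Stt3a (chr9:36574936-36575035, minus strand, SP/KLF and NFY), Mrpl32 (chr13:14705305-14705404, minus, NRF1), Ppp2r1a (chr17:21082175-21082274, plus, ETS), Cdk5rap2 (chr4:70071478-70071577, minus, YY1), Stard3nl (chr13:19487622-19487721, minus, CREB), Ccdc150 (chr1:54307427-54307526, plus, E-box), Rnpc3 (chr3:113333068-113333167, minus, ZBTB33 type) and Stip1 (chr19:7114517-7114616, minus, TATA box). The stretch of Stt3a lies before another TSS, downstream of the TSS nearest to the region centre, and the window of the nearest TSS, which the ranks by word use, holds CCAAT and no SP/KLF word. The other stretches lie before the nearest TSS.
Stt3a: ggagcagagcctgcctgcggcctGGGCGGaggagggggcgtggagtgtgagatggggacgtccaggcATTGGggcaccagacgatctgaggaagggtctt
Mrpl32: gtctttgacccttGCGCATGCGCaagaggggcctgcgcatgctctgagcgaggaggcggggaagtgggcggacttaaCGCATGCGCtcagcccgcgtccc
Ppp2r1a: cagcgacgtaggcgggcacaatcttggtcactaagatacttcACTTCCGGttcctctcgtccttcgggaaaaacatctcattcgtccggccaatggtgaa
Cdk5rap2: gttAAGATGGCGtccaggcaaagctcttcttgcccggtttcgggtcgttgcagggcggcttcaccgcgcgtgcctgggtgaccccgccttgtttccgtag
Stard3nl: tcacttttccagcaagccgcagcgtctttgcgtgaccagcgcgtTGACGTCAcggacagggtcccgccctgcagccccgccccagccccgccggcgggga
Ccdc150: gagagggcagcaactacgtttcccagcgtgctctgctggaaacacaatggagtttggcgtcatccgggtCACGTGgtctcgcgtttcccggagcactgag
Rnpc3: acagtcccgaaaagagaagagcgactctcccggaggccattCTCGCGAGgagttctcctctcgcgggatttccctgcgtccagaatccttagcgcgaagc
Stip1: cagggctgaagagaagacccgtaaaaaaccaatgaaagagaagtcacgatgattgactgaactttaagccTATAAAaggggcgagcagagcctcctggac

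The region of Mrpl32, a protein of the mitochondrial ribosome, was shared with Psma2, a proteasome subunit on the other strand, and scored 20.6, 27.3 and 23.5 in the DA libraries and 14.4 and 11.7 in the 5-HT libraries. Its promoter held the NRF1 word 3 times, with 2 of the matches overlapping on opposite strands. In Stip1, a co-chaperone of HSP70 and HSP90, the TATA box started 30 bases before the TSS, and the region scored 21.5, 25.3 and 28.1 in the DA libraries and 13.6 and 12.0 in the 5-HT libraries. Cdk5rap2, a centrosome protein, had its YY1 word 97 bases upstream and ranked 283 among the members.

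The rule asks for a peak in each library, so 5-HT 2, with the fewest peaks, sets most of the membership, and a promoter outside the list is not shown to be closed. The score has no named scale and no read counts, so ranks are compared and not amounts of open chromatin. Percentiles depend on how many peaks each library has. With 3 against 2 libraries an exact permutation test cannot go below a one-sided p of 0.1, and cell type, mouse line and brain region change together between the groups. Gene lists were written by symbol and cover part of each function. Words in a sequence are not binding, and an open promoter is not a measure of transcription.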

How the data were processed

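Per the submitters' processing notes and the methods of the study, reads were trimmed by Trimmomatic with quality control in FastQC, Bowtie2 placed them on mm9, Picard took out duplicates, MACS2 called the peaks, BEDOPS joined close ones, and HOMER gave the annotation of features; tool versions are not given in the sources used here. The deposited tables of the 5 libraries list the same regions, each with a score from the authors whose scale is not named, so the score was used by rank within a library, and a score of 0 was read as no peak. The members and the gene lists were chosen with earlier results of these data known.

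TSSs were the 5' ends of protein-coding transcripts in GENCODE vM1. Ranks were compared by limma 3.58.1 in R 4.3.3 on rank-normal scores of all regions with a peak in the 5 libraries, 3 DA against 2 5-HT, without a block, and the rank correlations by an exact permutation test. Sequences were read from the NCBIM37 genome. Regions, ranks and words were computed with pandas 2.3.3, SciPy 1.17.1, NumPy 2.4.6 and Python 3.11.15, and the scripts were tested on simulated data. Alternatives were other TSSs, promoter limits, widths, peak numbers, score scales and windows, a replicate block, and leaving out each library. Named promoters were the 10 highest and 5 lowest by mean percentile, up to 10 per direction by limma (the higher direction filled up with uncalled members whose groups do not overlap, and calls beyond 10 named in addition), list extremes, markers, width extremes and 1 promoter per word except E2F; some promoters that meet this rule are not reported here. Symbols of the lists were matched to the annotation, and 8 that were not found are left out. Among these is Map1b, which the annotation names Mtap1b and which has a shared promoter called lower in DA neurons. The counts of tubulins, actins and motor proteins leave it out. RNA-seq was not analysed here. Intervals cover counting error only. The labels do not tie libraries to single embryos, and p-values measure the spread between these sorts.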

Additional observations from a re-analysis of the deposited data

How the results depend on the processing

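The number of shared promoters was 6962 with the 5' ends of all transcripts, 9552 when promoters reached 2 kb before and 500 bp after the TSS, 9921 by any overlap, 6369 after merging regions less than 100 bp apart, 5549 below 2000 bp and 5071 with the equal number of highest-scoring peaks. Leaving out 1 library gave 6376 to 7527. The percent of genes with a shared promoter was 33.7, 45.8, 47.6, 31.0, 27.2 and 25.2 in the same order of settings, and 31.0 to 36.0 without 1 library. The median CG ratio was 0.753 from 500 bases before to 500 after the TSS. The difference of the median percentiles of DA and 5-HT libraries, 14.4 among all peaks, was reversed to -0.27 over the equal number of highest-scoring peaks with all members kept, a setting chosen after seeing the data. It was 4.11 when each library kept only its members inside that number (5556, 5631 and 5426 in DA, 5908 and 6376 in 5-HT), 2.24 among shared regions, and 10.1 to 18.7 without 1 library. That of the rank correlations stayed positive, from 0.0309 without DA 1 to 0.141 without 5-HT 1. By any overlap, 27 of 35 lists had a share above that of all genes.

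Limma called 161 members higher in DA and 166 lower with centred log2 scores, and 2 and 16 with ranks within the members. Leaving out 1 library gave 0 to 422 higher and 0 to 232 lower, with 0 by limma without DA 1, DA 2 or DA 3 (unadjusted p below 0.05 at 415, 398 and 406 members); where 1 5-HT library was left, it was assumed to vary like the DA libraries. All 18 calls were shared with the setting of log2 scores and kept their direction in each setting. With the replicate number as a block (replicate block), limma called 0 higher and 0 lower, with an unadjusted p below 0.05 at 381 members. The deviations of libraries of the same number had correlations of -0.00974 and 0.0197. With 2 5-HT libraries, the deviation of 1 mirrors that of the other, so these values cannot show whether libraries of the same number belong together. The cause of these changes was not tested. Over single promoters, lists and words, 80 values were classed as the same, which does not mean equal. The share of 5-HT markers, for example, was in this class and went from 9.09% to 27.3% by any overlap. A further 74 values kept their direction without passing the threshold, and 35 were classed as moved.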
